A study of Mus musculus with 4 samples.

Results

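The small subunit of the cytosolic ribosome (40S) is built from 1 ribosomal RNA and a set of proteins, and 28 genes for these proteins were described here: Rpsa, Rps2, Rps3, Rps3a1, Rps4x, Rps6, Rps7, Rps9, Rps10, Rps12, Rps13, Rps14, Rps15, Rps15a, Rps16, Rps18, Rps19, Rps20, Rps21, Rps23, Rps24, Rps25, Rps26, Rps27, Rps27a, Rps28, Rps29 and Fau. They were taken by symbol from a list of 40S protein genes, and all 28 had an entry among the 18200 genes of the table. The data are RNA from polysomes, messenger RNA that carries several ribosomes, in mouse cells labelled ADSCs, an abbreviation the labels do not spell out. In the series' design, 2 libraries came from cells with sh-Ifit1, a short hairpin RNA against Ifit1 (treatment label IFIT1 knockdown), and 2 from cells with a scrambled control (treatment label Scrambled). The genotype label is WT in all 4 libraries, and replicate 1 of each group is in batch 1 and replicate 2 in batch 2. Total RNA was not analysed here, so the amount of a messenger RNA and its loading with ribosomes cannot be told apart, and in such bulk samples neither can fewer cells of a type and less RNA per cell.

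The 40S subunit binds initiation factors and the initiator transfer RNA, scans the messenger RNA for the start codon and then decodes it after joining the 60S subunit. Its proteins are made in near-equal numbers, assembled on the ribosomal RNA in the nucleolus and finished in the cytoplasm, and unassembled copies are degraded. Their messenger RNAs typically begin with a C followed by a run of pyrimidines, the terminal oligopyrimidine (TOP) tract, through which the kinase mTOR and the RNA-binding protein Larp1 control their entry into polysomes.

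Because polysome loading of these genes is known to run through the TOP tract, the annotated start sites are shown for the genes that hold such a tract and for a pair of lower genes. RefSeq promoters (GRCm38.p6) were matched by symbol for 24 of the 28 genes, and not for Rps14, Rps20, Rps27a and Rps29. Each sequence below runs 5′ to 3′ over 30 bases, 15 before the annotated start and 15 from it onwards, with capitals marking the unbroken run of C and T that begins with a C at the start itself.
Fau (chr19:6057932-6057961, plus strand): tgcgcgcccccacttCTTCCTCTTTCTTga
Rps15a (chr7:118116133-118116162, minus strand): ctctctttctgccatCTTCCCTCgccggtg
Rps27 (chr3:90213634-90213663, minus strand): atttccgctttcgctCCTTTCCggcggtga
Rps10 (chr17:27635230-27635259, minus strand): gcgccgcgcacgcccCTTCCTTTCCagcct
Rps18 (chr17:33955651-33955680, minus strand): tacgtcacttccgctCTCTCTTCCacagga
Rps21 (chr2:180257364-180257393, plus strand): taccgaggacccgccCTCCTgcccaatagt
Rps6 (chr4:86857353-86857382, minus strand): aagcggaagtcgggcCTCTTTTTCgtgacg
Rps3a1 (chr3:86142654-86142683, minus strand): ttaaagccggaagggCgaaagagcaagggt
Rps4x (chrX:102189377-102189406, minus strand): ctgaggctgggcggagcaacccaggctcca
A C at the start followed by at least 4 bases of C or T was found in 7 of the 28 promoters of these 24 genes (25.0%), against 2.51% of all 32851 promoters in the table. The tracts were 13 bases long in Fau, 10 in Rps10, 9 in Rps18 and Rps6, 8 in Rps15a, 7 in Rps27 and 5 in Rps21. In Rps9 and Rps24 a run of C and T spans the annotated start but has a T at it, so it was not counted. The count rests on the exact annotated base, and whether transcription starts there in these cells was not tested. A gene without a counted tract may therefore still have one. In the promoter window of 250 bases before to 50 after the start, CCGGAAG, the core bound by ETS factors, was present on either strand in 11 of the 28 promoters (39.3%), against 8.86% of all promoters. GGGCGG, the GC box, was present in 16 (57.1%), against 35.7%, and the ends of both motifs can overlap. Genes with a tract stood among those with a higher value (Fau, Rps15a, Rps27), a lower value (Rps6) and no call (Rps10, Rps18, Rps21) in the comparison below. So did genes without a counted tract. Of these, Rps2, Rps3, Rps7, Rps9, Rps12, Rps13, Rps16, Rps19 and Rpsa were higher, and Rps3a1 and Rps4x were lower. Rps15, Rps23, Rps24, Rps25, Rps26 and Rps28 had no call.

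Fragments recovered from the deposited values came to 36967270 and 33930262 in the libraries labelled knockdown and to 30440386 and 36957426 in those labelled scrambled. Ifit1, the gene named as the target, went against the label: its FPKM (fragments scaled to gene length and library depth) was 13.9 and 14.8 in the libraries labelled knockdown and 1.93 and 1.91 in those labelled scrambled (log2 change 2.39, limma adjusted p = 1.6e-04). Its limma SE of 0.04 was below its counting SE of 0.08, and the same held for Larp1, Btg2, Ccng1, Utp15, Ltv1, Usp10, Rps6ka3, Mrps2, Thy1, Egfl7, Krt18 and Krt7, all named below, so their p-values rest on a spread smaller than counting error by the recovered fragments. Every direction below is therefore that of the libraries labelled knockdown against the libraries labelled scrambled, whatever the cells had received. Of the mesenchymal stromal markers 8 of 13 were tested, with 6 higher and 2 lower. Of the untested ones, Pdgfrb reached at most 0.909 FPKM in any library, Dcn 0.158, Pdgfra 0.121, Nt5e 0.0347 and Lum 0.0133. The summed level of the list was 138 in both libraries labelled knockdown, and 162 and 163 FPKM in those labelled scrambled. Thy1 was higher (31.0 and 30.3 against 3.71 and 3.68 FPKM) and Col1a2 lower (33.8 and 34.7 against 100.2 and 100.9 FPKM). The summed level was 8.53 and 8.60 against 10.3 and 10.3 FPKM for adipocyte markers, 9.22 and 9.43 against 9.37 and 9.27 for leukocyte markers, 4.70 and 4.47 against 1.69 and 1.63 for endothelial markers (nearly all of it Egfl7, at 4.70 and 4.46 against 1.68 and 1.61), and 102 and 103 against 169 and 165 for epithelial and mesothelial markers. Most of the last sum was Krt19, with 91.4 and 92.2 FPKM in the libraries labelled knockdown and 166 and 161 FPKM in those labelled scrambled. In the same list 3 of 5 tested genes were higher, among them Krt18 (2.84 and 2.94 against 0.466 and 0.475 FPKM) and Krt7 (2.94 and 3.03 against 0.9204 and 0.9191 FPKM). The leukocyte sum joined opposite changes, with Cd14 higher (5.85 and 5.99 against 5.16 and 5.14 FPKM) and Coro1a lower (2.90 and 2.96 against 3.71 and 3.70 FPKM). Of the 10 leukocyte markers 6 had an entry, and Cd68, Lyz2, Csf1r and Cd79a reached at most 0.399 FPKM. Plin1, Pecam1, Tek, Vwf and Epcam, defining markers of adipocytes, endothelium and epithelium, reached at most 0.0134 FPKM in any library. Other adipocyte markers were present, with highest values of 4.93 FPKM for Cebpa, 3.15 for Pparg, 2.62 for Fabp4 and 1.95 for Acsl1. The low markers alone therefore do not show that a cell type was absent. The part of other cells in the results was not tested. The labels do not say whether the 2 replicates of a group were separate cultures, so a p-value here sets a difference against a spread that may be technical.

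The 40S genes did not move as 1 block. Of the 28 genes, all of which passed the filter of a mean of at least 1 FPKM, 15 were higher and 3 were lower in the libraries labelled knockdown, and 10 did not pass the threshold of 0.05 on limma's adjusted p. Changes were common throughout the data, with 68.7% of the 8750 tested genes past the threshold, 27.4% higher and 41.2% lower. Against that background, 53.6% of the 40S genes were higher and 10.7% were lower. The 40S genes were short, with coding lengths from 168 to 885 bases, and short genes were more often higher among all tested genes. Of tested genes up to 300 bases 51.4% were higher and 5.09% lower. The shares were 49.4% and 13.7% from 300 to 600 bases, and 35.3% and 32.2% from 600 to 900 bases. The median log2 change of log2(FPKM + 1) was 0.23 over the 40S genes (0.47 in batch 1 and 0.21 in batch 2) and -0.02 over all tested genes (-0.13 and -0.22). The sign of the 40S median depended on the processing: it was 0.04 with the libraries set to a common sum (where the median of all tested genes was -0.21), -0.09 after quantile normalization (11 genes higher and 6 lower) and -0.14 with a trend on transcript length taken out (7 higher and 7 lower).

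The groups did not overlap in 19 of the 28 genes. Both libraries labelled knockdown lay above both labelled scrambled in 16 of them, where 30.1% of all tested genes did so, and below in 3, where 44.4% did. In the other 9 genes the groups overlapped. The folds of the 15 higher genes were between 1.14 and 2.28, and those of the 3 lower genes were 0.622 (Rps6), 0.627 (Rps4x) and 0.628 (Rps3a1).

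**Figure D1:**
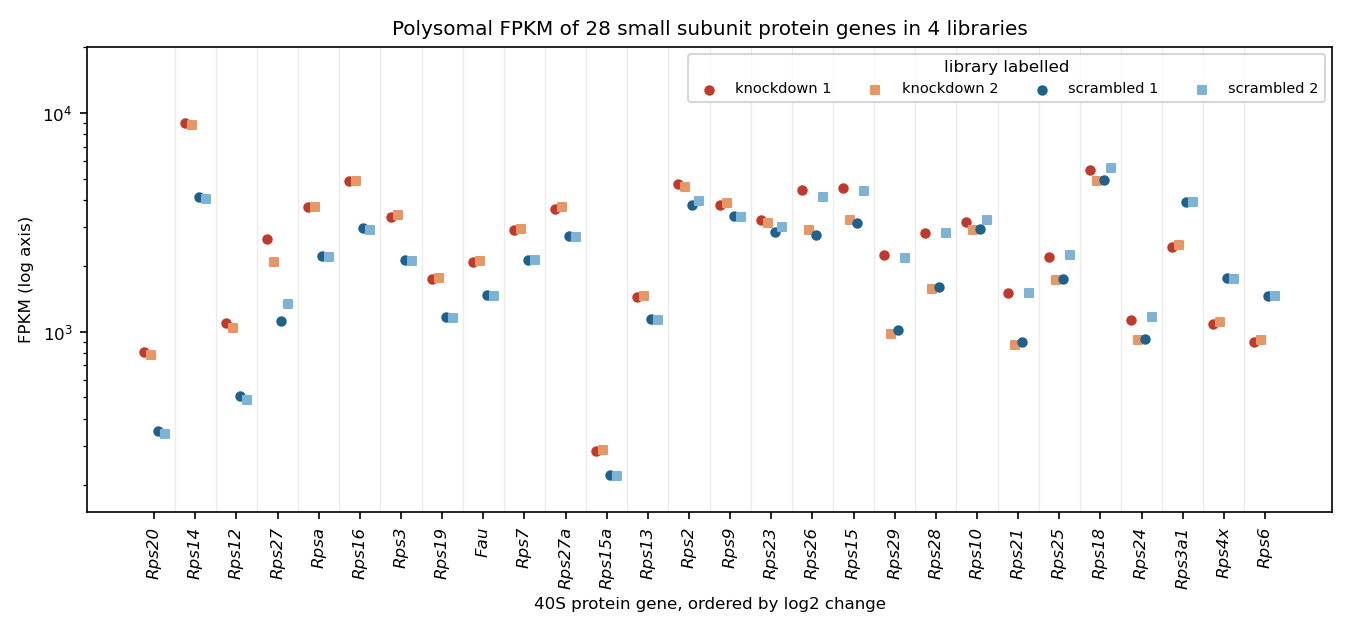
FPKM (log axis) of the 28 genes for 40S proteins in each of the 4 libraries, 1 point per library, with the genes ordered by log2 change. Rps20, with 804 and 779 FPKM in the libraries labelled knockdown and 352 and 341 in those labelled scrambled, shows separate groups, while in Rps29 knockdown replicate 1 (2244 FPKM) lies beside scrambled replicate 2 (2167 FPKM).

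Of the 12 genes for proteins of the head, the part of the subunit that swivels during translocation, 6 were higher and 6 did not pass. Rps20, a protein of the head, had 804 and 779 FPKM in the libraries labelled knockdown, against 352 and 341 FPKM in those labelled scrambled. The means were 792 ± 17.9 and 347 ± 7.93 FPKM (SD, n = 2 each), a 2.28-fold difference (log2 change 1.19, SE 0.03, limma adjusted p = 1.7e-04), with a log2 difference of 1.19 in both batches. Both libraries of each group lay close together and far from the other group. Rps12, at the beak of the head, had 1097 and 1043 FPKM against 506 and 487 FPKM (2.16-fold, adjusted p = 2.4e-04), which again left a wide gap between the groups.

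Rps16, whose tail reaches towards the peptidyl site, had 4875 and 4878 FPKM in the libraries labelled knockdown, against 2974 and 2926 FPKM in those labelled scrambled (log2 change 0.73). Rps3, a protein of the messenger RNA entry channel that is also known for a role in DNA repair, had 3349 and 3400 FPKM, against 2116 and 2095 FPKM (log2 change 0.68). Both genes had log2 differences of 0.66 or more in each batch. Rps19, the gene most often mutated in Diamond-Blackfan anaemia, a failure of red cell production, had 1744 and 1756 FPKM against 1169 and 1151 FPKM (log2 change 0.59). Rps27a, which encodes ubiquitin fused to a 40S protein, had 3650 and 3702 FPKM against 2743 and 2715 FPKM (log2 change 0.43). The groups stayed apart in all 4 of these genes, and the limma adjusted p lay between 1.7e-04 and 3.9e-04.

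In the body and platform of the subunit, 16 genes were listed, of which 9 were higher, 3 were lower and 4 did not pass. The median log2 change was 0.23, close to the 0.24 of the head. Rps14, a platform protein whose loss is linked to the anaemia of the 5q- syndrome, had the highest mean level among the 28 genes in the libraries labelled knockdown. It had 9001 and 8836 FPKM in the libraries labelled knockdown, against 4111 and 4028 FPKM in those labelled scrambled. The means were 8918 ± 117 and 4069 ± 58.5 FPKM (SD, n = 2 each), a 2.19-fold difference (log2 change 1.13, SE 0.02, limma adjusted p = 1.6e-04), with 1.13 in both batches. Its groups were separated by more than the whole of the scrambled level.

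Rpsa, which joins the subunit late and is also known as a laminin receptor, had 3705 and 3724 FPKM in the libraries labelled knockdown, against 2225 and 2187 FPKM in those labelled scrambled (log2 change 0.75, SE 0.02, limma adjusted p = 1.7e-04). Fau, which encodes a ubiquitin-like protein fused to a 40S protein, had 2075 and 2097 FPKM against 1472 and 1448 FPKM (log2 change 0.51). In both genes the groups did not overlap, and the difference was positive in each batch, which holds 1 library per group. Rps7, known to bind the p53 regulator Mdm2, had 2914 and 2951 FPKM against 2134 and 2115 FPKM (log2 change 0.46). Rps15a had 286 and 289 FPKM against 221 and 219 FPKM (log2 change 0.38), and Rps13 had 1436 and 1457 FPKM against 1142 and 1131 FPKM (log2 change 0.35). These 5 genes differed little between replicates, by at most 0.02 on the log2 scale between the libraries labelled scrambled.

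The smallest of the called differences were in Rps2 and Rps9, both proteins of the messenger RNA entry region. Rps2 had 4748 and 4590 FPKM in the libraries labelled knockdown, against 3792 and 3956 FPKM in those labelled scrambled (log2 change 0.27, SE 0.04, limma adjusted p = 0.0072). Rps9 had 3801 and 3870 FPKM against 3368 and 3351 FPKM (log2 change 0.19, SE 0.02, adjusted p = 0.0036). The groups did not overlap in either, but without knockdown replicate 1 the adjusted p of Rps2 was 0.058, and both genes had negative log2 changes after quantile normalization (-0.03 and -0.14).

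Rps27, a zinc-finger protein of the platform, had the widest replicate spread among the higher genes. It had 2640 and 2074 FPKM in the libraries labelled knockdown, against 1115 and 1336 FPKM in those labelled scrambled, a 1.92-fold difference (log2 change 0.94, SE 0.18, limma adjusted p = 0.019). The log2 difference was 1.24 in batch 1 and 0.63 in batch 2. With the replicate number as a block the adjusted p was 0.064, and it was 0.076 without knockdown replicate 1 and 0.069 without scrambled replicate 1. Rps23, a protein of the decoding centre, had 3242 and 3124 FPKM against 2847 and 3000 FPKM and did not pass (log2 change 0.12, adjusted p = 0.08), although its groups did not overlap. It was higher with libraries centred on their median (log2 change 0.30, adjusted p = 0.0042), and lower after quantile normalization (-0.24, adjusted p = 0.015) and with the length trend taken out (-0.20, adjusted p = 0.017).

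The 3 lower genes had nearly the same change. Rps6, the protein that S6 kinases phosphorylate downstream of mTOR, had 893 and 915 FPKM in the libraries labelled knockdown, against 1454 and 1454 FPKM in those labelled scrambled (log2 change -0.68, SE 0.02, limma adjusted p = 2.0e-04). Rps4x, an X-linked gene, had 1081 and 1106 FPKM against 1751 and 1739 FPKM (log2 change -0.67). Rps3a1 had 2434 and 2495 FPKM against 3930 and 3924 FPKM (log2 change -0.67). The groups were far apart in each of the 3 genes, and within batches their log2 differences lay between -0.70 and -0.65. All 3 encode proteins of the body or platform and were among the longer genes of the 28, with coding lengths of 747, 789 and 792 bases. Rps3, Rps2 and Rpsa, with coding lengths of 729, 879 and 885 bases, were higher.

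**Figure D2:**
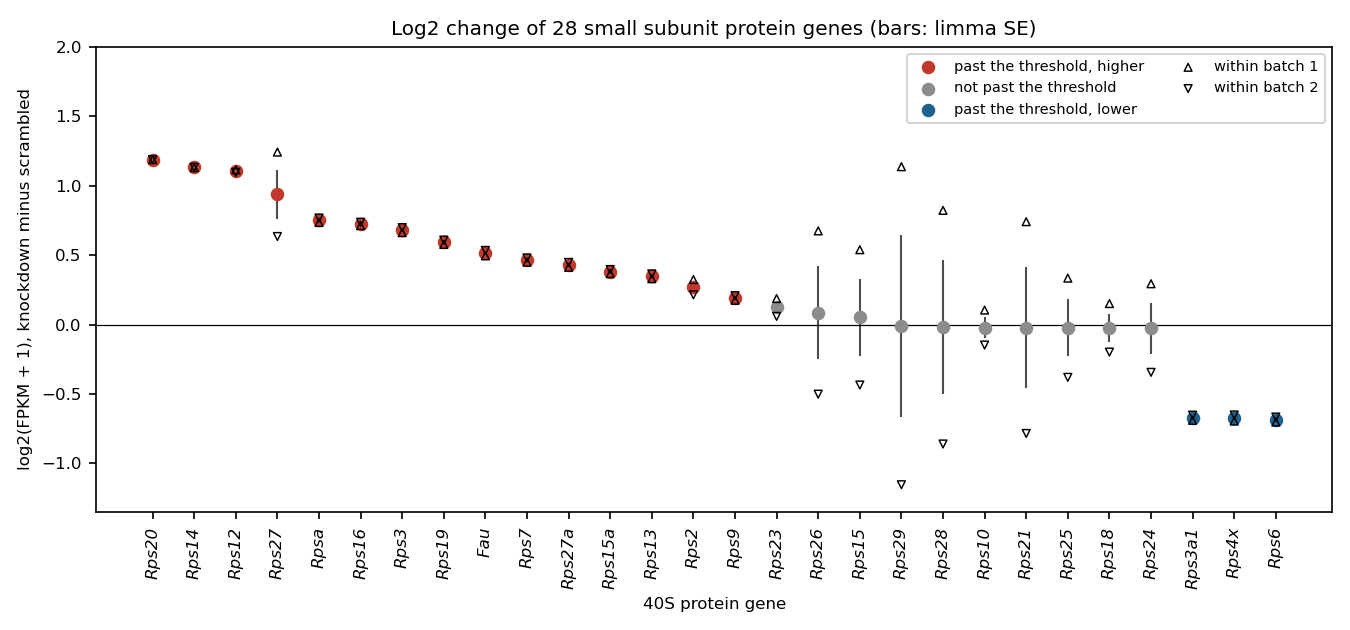
Log2 change of log2(FPKM + 1), libraries labelled knockdown minus libraries labelled scrambled, for each of the 28 genes, with limma's standard error as the bar and the within-batch differences as separate marks. The differences of batch 1 and batch 2 lie on top of each other for Rps14 (1.13 and 1.13) and on opposite sides of 0 for Rps29 (1.14 and -1.15).

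In 10 genes replicate 1 lay above replicate 2 in the libraries labelled knockdown and below it in those labelled scrambled, by more than 0.1 on the log2 scale in both groups, a rule set after the values were seen. They were Rps27 and the 9 genes whose groups overlapped: Rps29, Rps28, Rps21, Rps26, Rps15, Rps25, Rps24, Rps18 and Rps10. Of all tested genes 16.4% had this pattern, 9.71% had it the other way round, and 7 of 8750 had replicate 1 above or below replicate 2 by that much in both groups alike. Among the 28 genes 35.7% had the pattern and 0 had it the other way round. Just inside the limit, Rps10 differed between replicates by 0.12 and -0.14. Just outside it, Rps23 differed by 0.05 and -0.08 (libraries labelled knockdown first, replicate 1 minus replicate 2). Rps12 differed by 0.07 and 0.05, the same way in both groups, and so would not have the pattern at a smaller limit.

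Rps29, a small zinc-finger protein of the head, had 2244 and 973 FPKM in the libraries labelled knockdown, against 1019 and 2167 FPKM in those labelled scrambled. Knockdown replicate 1 and scrambled replicate 2 were high and alike, and knockdown replicate 2 and scrambled replicate 1 were low and alike. Replicate 1 was 2.31-fold above replicate 2 among the libraries labelled knockdown, and replicate 2 was 2.13-fold above replicate 1 among those labelled scrambled. The log2 change was -0.01 with an SE of 0.66 (limma adjusted p = 0.99), and the log2 difference was 1.14 in batch 1 and -1.15 in batch 2. Counting error was far smaller, with a counting SE of 0.016 for the replicate difference in the libraries labelled knockdown, from 28505 and 11334 fragments.

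Rps28, whose protein lies at the messenger RNA exit, had 2815 and 1560 FPKM in the libraries labelled knockdown, against 1591 and 2834 FPKM in those labelled scrambled. Rps21, a small protein placed with the body, had 1504 and 872 FPKM against 900 and 1503 FPKM. The high and low libraries were the same ones as for Rps29. Rps26, a protein of the messenger RNA exit region, had 4435 and 2923 FPKM against 2778 and 4140 FPKM. Rps15 had 4549 and 3232 FPKM against 3130 and 4373 FPKM. Their log2 changes between groups lay between -0.02 and 0.09, with adjusted p from 0.97 to 0.99.

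The same libraries were high and low, by smaller amounts, in the remaining genes of this kind. Rps25, known to be needed for initiation at several viral internal entry sites, had 2194 and 1720 FPKM in the libraries labelled knockdown, against 1740 and 2240 FPKM in those labelled scrambled. Rps24 had 1129 and 914 FPKM against 921 and 1161 FPKM. In Rps18, at the top of the head, the values were 5470 and 4880 FPKM against 4926 and 5602 FPKM. Rps10, a head protein that is ubiquitinated when ribosomes collide, had 3155 and 2913 FPKM against 2935 and 3228 FPKM. In all 9 uncalled genes of this kind, the ratio of knockdown replicate 1 to scrambled replicate 2 and that of knockdown replicate 2 to scrambled replicate 1 lay between 0.954 and 1.07. A missed threshold does not show that these genes were alike in both groups, since their SE was between 0.07 and 0.66. Rps10 was lower with a common sum (log2 change -0.21, adjusted p = 0.035), after quantile normalization (-0.37, 0.0055) and with the length trend taken out (-0.60, 0.0022). Rps18 was lower in the last pair of settings (-0.36 and -0.56, adjusted p = 0.011 and 0.0015), and Rps25 with the length trend taken out (-0.55, adjusted p = 0.032).

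**Figure D3:**
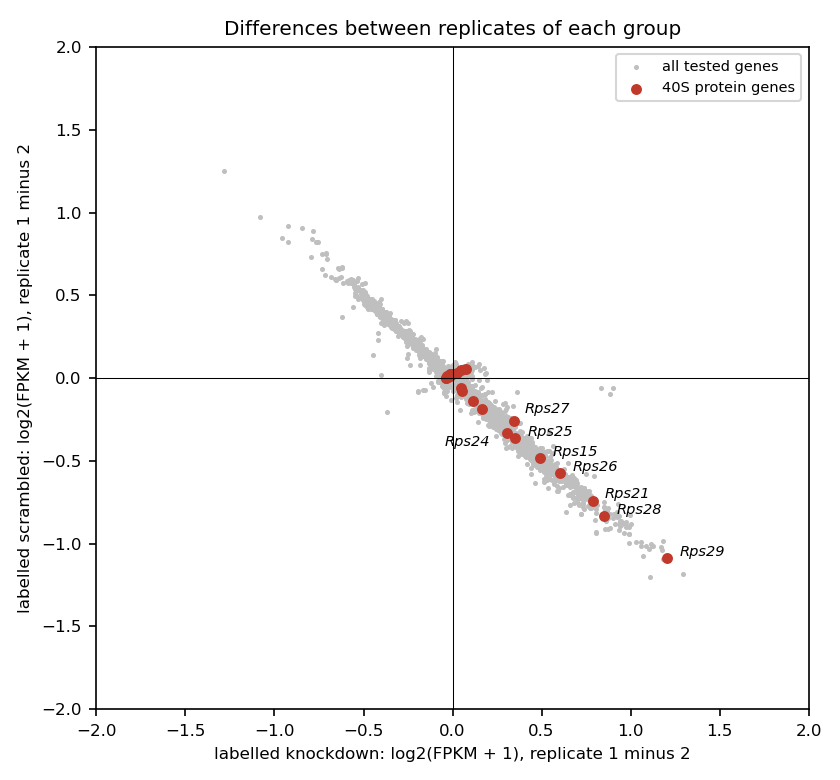
Replicate 1 minus replicate 2 on log2(FPKM + 1), in the libraries labelled knockdown (x axis) and labelled scrambled (y axis), with 1 grey point per tested gene and 1 red point per gene for a 40S protein. The points fall along a descending line, and Rps29 lies near its lower right end at 1.21 and -1.09.

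The other 18 genes had close replicates, with differences of at most 0.07 on the log2 scale in the libraries labelled knockdown and 0.08 in those labelled scrambled. Across the 28 genes the replicate differences of both groups had Pearson's r = -0.99, and across the 8750 tested genes r was -0.83. These are descriptions across genes of the same 4 libraries, and genes are not independent replicates. Gapdh had the pattern the other way round, with 161 and 268 FPKM in the libraries labelled knockdown and 275 and 163 FPKM in those labelled scrambled.

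Summed over the 28 genes, the level was 81270 and 73072 FPKM in the libraries labelled knockdown, against 59362 and 66852 FPKM in those labelled scrambled. Both libraries labelled knockdown were above both labelled scrambled. The 18 genes with close replicates summed to 51136 and 51011 FPKM against 38307 and 38268 FPKM, and the 10 genes with the crossed replicates to 30134 and 22061 FPKM against 21055 and 28584 FPKM. The 10 genes were picked by their replicate differences, which largely fixes that their sums overlap, so both pairs of sums are a description. As a share of all FPKM, the 40S genes held 11.6% and 10.7% in the libraries labelled knockdown, against 9.92% and 10.8% in those labelled scrambled, and these shares overlapped. As a share of recovered fragments they held 7.20% and 6.79%, against 5.33% and 5.71%, which did not overlap. An exact permutation test of 2 libraries against 2 cannot give a two-sided p below 1 in 3, so no test is given for sums and shares.

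The 47 genes for proteins of the large subunit (60S) summed to 140148 and 133518 FPKM in the libraries labelled knockdown, against 102944 and 107616 FPKM in those labelled scrambled. The ratio of the 40S to the 60S sum was 0.580 and 0.547, against 0.577 and 0.621, with means of 0.564 ± 0.0231 and 0.599 ± 0.0315 (SD, n = 2 each). The ratios overlapped between the groups. Of the 60S genes 19 were higher, 6 were lower and 22 did not pass, with a median log2 change of 0.04, and 13 of them (27.7%) had the crossed replicates. Rpl18 had 1571 and 1580 FPKM against 819 and 807 FPKM, and Rpl36a had 2947 and 2914 FPKM against 1585 and 1549 FPKM, both higher.

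**Figure D4:**
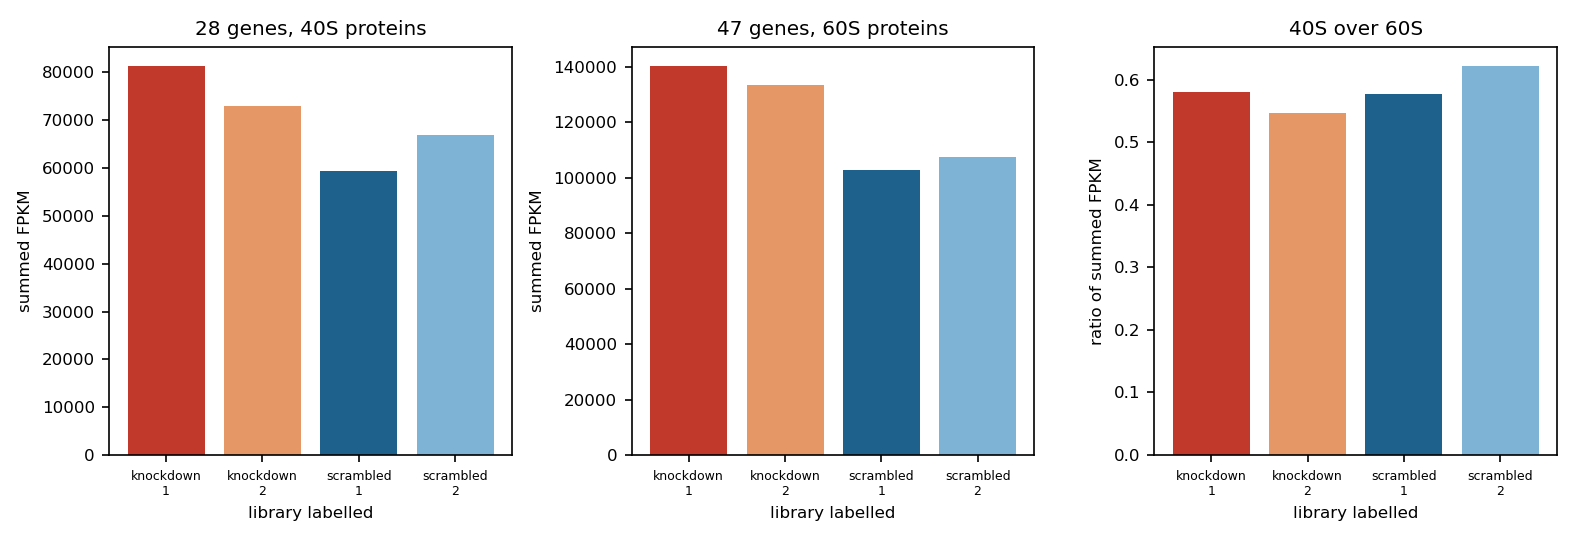
Summed FPKM of the 28 genes for 40S proteins and of the 47 genes for 60S proteins in each library, and the ratio of the sums, with 1 bar per library. The sums are higher in both libraries labelled knockdown, and the ratios (0.580 and 0.547 against 0.577 and 0.621) overlap.

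Levels between these genes are comparable only as far as the authors' gene lengths hold. The length implied by FPKM and recovered fragments ran from 335 to 5456 bases with a median of 837, and Rps15a (5456 bases) and Rps20 (3868 bases) were scaled by lengths far above their coding lengths of 390 and 357 bases. Their low FPKM among the 28 genes stands beside those lengths, and the differences between libraries are not affected by a length that is the same in all libraries.

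Coding length (GENCODE M21) moved with the results. Across the 8247 tested genes with a coding length, Spearman's rho between coding length and log2 change was -0.41, and across the 28 genes it was -0.09. All 4 genes of at most 300 bases (Rps29, Rps28, Rps21 and Rps27) had the crossed replicates, as did 44.9% of the 216 tested genes of that length. Of the 18 genes from 300 to 600 bases, 11 were higher and 6 had the crossed replicates, beside 49.4% higher and 30.8% crossed among the 1097 tested genes in that range. Of the 6 genes from 600 to 900 bases, 3 were higher, 3 were lower and 0 had the crossed replicates, beside 35.3%, 32.2% and 18.2% of 1310 tested genes. Coding lengths ran from 168 to 495 bases (median 360) in the 10 genes with crossed replicates and from 357 to 885 bases (median 460.5) in the other 18. With the trend on transcript length taken out, the log2 changes of Rps27a, Fau, Rps15a, Rps13, Rps2 and Rps9 were -0.06, -0.08, -0.11, -0.17, -0.03 and -0.23. Rps19 (0.10, adjusted p = 0.44) and Rps7 (0.08, adjusted p = 0.43) no longer passed. The transcript lengths used were 3706 bases for Rps20, 1908 for Rps3, 1599 for Rpsa and 1109 for Rps16. Their coding lengths were 357, 729, 885 and 438 bases. With this trend taken out, their log2 changes were 1.45, 0.68, 0.68 and 0.48. Rps14 (transcript of 597 bases) had 0.62 and Rps12 (494 bases) had 0.53. A trend on coding length was not taken out. The part of fragment size or length in these results was not tested.

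**Figure D5:**
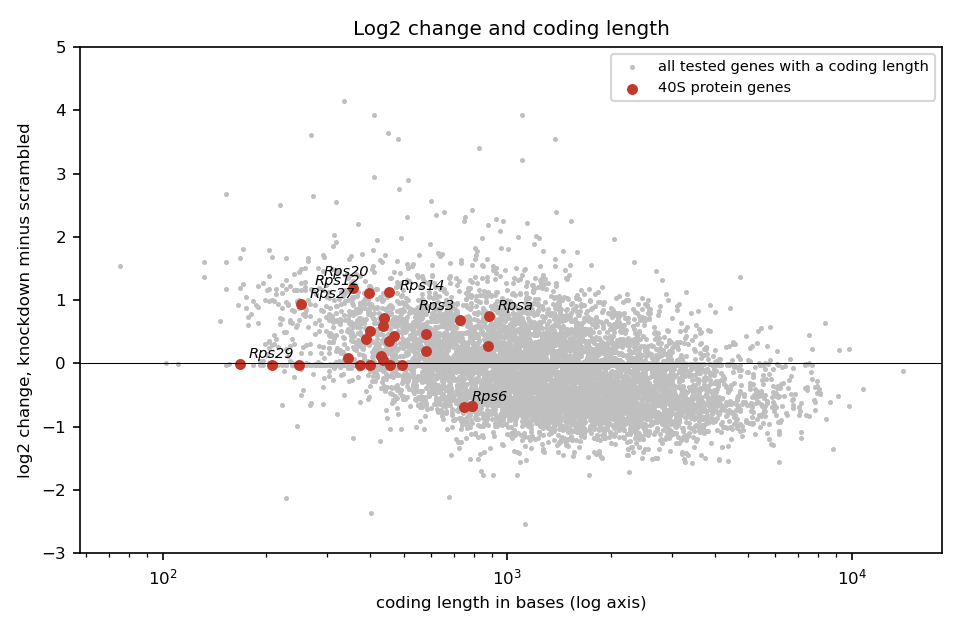
Log2 change of log2(FPKM + 1), libraries labelled knockdown minus libraries labelled scrambled, against coding length in bases (log axis), with 1 grey point per tested gene and 1 red point per gene for a 40S protein. The 40S genes lie at the short end, from 168 bases (Rps29) to 885 bases (Rpsa), where the grey points lie higher than at the long end.

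Close copies can share reads with the listed genes. Rps27l, a copy of Rps27 that p53 is known to induce, had 165 and 157 FPKM in the libraries labelled knockdown, against 68.0 and 64.6 FPKM in those labelled scrambled (log2 change 1.26, limma adjusted p = 2.3e-04). Rps27rt, a retrogene of Rps27, had 59.4 and 30.6 FPKM against 27.99 and 50.7 FPKM and did not pass (adjusted p = 0.91). Rps27l was separate between the groups, while Rps27rt showed the crossed replicates of Rps27. Of the 8 pseudogenes of 40S genes in the table, Rps12-ps24 reached 6.18 FPKM and Rps15a-ps5 reached 5.46 FPKM, and the others stayed below 0.4 FPKM. The sources used here do not say how reads matching several genes were assigned, so the values of Rps12, Rps15a, Rps18 and Rps27 are uncertain by what such copies took or gave.

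Among genes that make, modify or meet the 40S subunit, more were lower than higher, as among all tested genes. Of all tested genes 27.4% were higher and 41.2% were lower. Of those with coding lengths from 900 to 3000 bases, 21.2% were higher and 49.0% were lower. Median coding lengths were 1557 bases for assembly factors, 1951.5 for genes that signal to or modify the subunit, and 1102.5 for eIF3. The part of length was not tested. Of 32 tested assembly factors 3 were higher (9.38%), 19 were lower (59.4%) and 10 did not pass, with a median log2 change of -0.45. Utp15, of the complex that processes the small subunit's RNA, had 4.54 and 4.62 FPKM in the libraries labelled knockdown, against 9.90 and 9.74 FPKM in those labelled scrambled, and Ltv1, which helps the subunit mature in the cytoplasm, had 10.9 and 11.1 FPKM against 22.4 and 22.2 FPKM. Of 14 tested genes that signal to or modify the subunit 3 were higher (21.4%) and 10 were lower (71.4%), with a median of -0.40. Usp10, which removes ubiquitin from 40S proteins, had 9.40 and 9.56 FPKM against 18.01 and 17.8 FPKM, and the kinase gene Rps6ka3 had 2.59 and 2.64 FPKM against 4.39 and 4.35 FPKM. Of 14 subunits of initiation factor eIF3 1 was higher and 7 were lower (median -0.22), with Eif3c at 79.2 and 80.3 FPKM against 149 and 146 FPKM and Eif3b at 160.05 and 162 FPKM against 270.2 and 266 FPKM.

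Of 16 other genes of TOP messenger RNAs and their regulators, 3 were higher (18.8%) and 11 were lower (68.8%), with a median log2 change of -0.44. Of all tested genes 27.4% were higher and 41.2% were lower. The median coding length of the 16 genes was 1146 bases. Among tested genes from 900 to 3000 bases 21.2% were higher and 49.0% were lower. Larp1, the protein that holds TOP messenger RNAs, had 3.94 and 4.04 FPKM in the libraries labelled knockdown, against 12.4 and 12.4 FPKM in those labelled scrambled (log2 change -1.43, limma adjusted p = 1.6e-04). Eef1a1, an elongation factor with a TOP messenger RNA, had 2697 and 2746 FPKM against 5258 and 5195 FPKM. In both genes the groups did not overlap, and the difference was negative in each batch, which holds 1 library per group. Of 29 proteins of the mitochondrial small subunit, 9 were higher and 6 were lower (median -0.02), with Mrps2 at 7.56 and 7.76 FPKM against 14.2 and 14.3 FPKM and Mrps24 at 229 and 225 FPKM against 119 and 116 FPKM. Of 10 tested p53 targets known from ribosomal stress, 7 were higher and 2 were lower (median 0.86). Btg2, which slows proliferation, had 10.2 and 10.2 FPKM against 3.86 and 3.82 FPKM, and Ccng1 had 29.0 and 29.5 FPKM against 13.1 and 13.0 FPKM. Actb, often used as a reference gene, was lower, with 1809 and 1842 FPKM against 2838 and 2809 FPKM.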

How the data were processed

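The 4 libraries, 2 labelled knockdown and 2 labelled scrambled, hold RNA from polysomes. Per the labels' protocols, Trizol extraction was followed by bead capture of messenger RNA and heat fragmentation. The authors deposited FPKM values, named as FPKM in the labels, for 18200 genes. The submitters' processing notes name the builds GRCm38, mm10 and GRCm39 without a role. Aligner, counting tool, annotation and strandedness were not given in the sources used here. No value column was left unused.

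The 8750 genes whose FPKM averaged 1 or more were tested on log2(FPKM + 1), which understates the change of low genes, with limma 3.58.1 in R 4.3.3 (eBayes with trend, no batch term). Two-sided p-values were adjusted over all tested genes by Benjamini-Hochberg, and 0.05 was the threshold. The replicate number pairs the libraries by the labels' shared batch, but the replicate differences of both groups correlated at r = -0.83 over the tested genes. The fit with that block is an alternative. FPKM are whole fragments times constants of library and gene, and whole fragments, apart from a common divisor, were recovered for 15928 genes and all 28 members. Each member had 10569 to 272032 fragments per library, so the counting SE of its log2 change was at most 0.0115. This covers counting error only. Scripts were tested on simulated data. Further software was matplotlib 3.10.9, pandas 2.3.3, numpy 2.4.6 and Python 3.11.15. Promoter sequences are from RefSeq (GRCm38.p6).

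The members and the 16 gene lists were chosen with earlier results of these data known. Named genes were the 28 members, Ifit1, the 2 tested genes with the smallest p of each other list, Actb and Gapdh, others are marked where they appear, and marker genes are printed only where a list's sum or count rests on them. Of the marker and RNA quality lists, which gave few tested genes, those not described with the results are as follows. Adipocyte markers had 1 higher and 3 lower of 4 tested, leukocyte markers 1 and 1 of 2, endothelial markers 1 and 0 of 1, epithelial and mesothelial markers 3 and 1 of 5, and nuclear and mitochondrial RNAs 1 and 1 of 2. The alternatives were another pseudocount (0.1), no filter, the block, leaving out each library, 3 other scalings and a length correction.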

Additional observations from a re-analysis of the deposited data

Results flagged for a closer look

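In 9 of the 28 genes the difference between the libraries labelled knockdown and labelled scrambled had opposite signs in the 2 batches, each batch holding 1 library of each group. The log2 difference was 1.14 in batch 1 and -1.15 in batch 2 for Rps29, 0.82 and -0.86 for Rps28, 0.74 and -0.79 for Rps21, 0.67 and -0.50 for Rps26, and 0.54 and -0.44 for Rps15. It was 0.33 and -0.38 for Rps25, 0.29 and -0.34 for Rps24, 0.15 and -0.20 for Rps18, and 0.10 and -0.15 for Rps10. Opposite signs in the batches were found in 2225 of the 8750 tested genes (25.4%). With 1 library per group in a batch, the difference between batches was not tested. These differences rest on the batch labels, and in the 9 genes the libraries that were alike (ratios of 0.954 to 1.07) carry different batch and replicate labels. Whether those labels were exchanged was not tested.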

How the results depend on the processing

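Each alternative was set beside the 15 higher and 3 lower genes and the median log2 change of 0.23. Leaving out 1 library gave 13 to 15 higher genes, 3 lower genes and medians of 0.22 to 0.38, with 0.38 without knockdown replicate 2 and 0.37 without scrambled replicate 2. The replicate block gave 14 higher and 3 lower genes and changed no call but that of Rps27, and pairing knockdown replicate 1 with scrambled replicate 2, added after the data were seen, gave 18 and 3 (2962 and 4282 of all tested genes, against 2205 and 3417 with the block). That pairing takes out the replicate differences from which it was picked. Its larger counts follow largely from this choice and are no test of the labels. A pseudocount of 0.1 and no filter left 15 and 3. Centring libraries on their median gave 16 and 3 with a median of 0.40 (0.15 over all tested genes), and a common sum 12 and 4 with a median of 0.044. Quantile normalization gave 11 and 6 with a median of -0.088 and turned Rps2 (-0.033), Rps9 (-0.14) and Rps23 (-0.24), and, past the threshold in neither setting, Rps15 (-0.34) and Rps26 (-0.22). Taking out the trend on transcript length gave 7 and 7 with a median of -0.14 and turned Rps2 (-0.027), Rps27a (-0.060), Fau (-0.077), Rps15a (-0.11), Rps13 (-0.17), Rps23 (-0.20) and Rps9 (-0.23), and, likewise uncalled, Rps15 (-0.52) and Rps26 (-0.38). The cause was not tested. The length correction used annotated transcript lengths, which for Rps20, Rps3, Rpsa and Rps16 were well above their coding lengths. Under the reported setting and the 11 alternatives other than that pairing, Rps20, Rps14, Rps12, Rpsa, Rps16 and Rps3 were called higher and Rps3a1, Rps4x and Rps6 lower each time, 6 genes (Rps29, Rps28, Rps21, Rps24, Rps26 and Rps15) never passed, and the calls of the other 13 varied. The 40S to 60S ratio (difference of means -0.04) stayed between -0.06 and -0.01 and the share of FPKM (0.78 percentage points) between 0.16 and 1.24 with 1 library or the gene with the largest FPKM left out. For the 28 genes the counting SE was below limma's SE, so the spread between 2 libraries per group limits the calls.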
